A study of Mus musculus with 3 samples.

Results

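Broad H3K4me3 regions, stretches of at least 4000 bp that carry windows of trimethylated lysine 4 of histone H3 with gaps of at most 600 bp, were examined in mouse T cells with and without STAT3. They were chosen on the reads of both H3K4me3 libraries pooled, so their width and their pooled reads are a description and not a finding. Windows of 200 bp with at least 12 pooled reads were joined across such gaps on chromosomes 1 to 19, with a short block of chromosome 6 left out. Of 10684 regions with 50 reads or more over both libraries, called marked here, 231 (2.16%) were 4000 bp or wider. The remaining 10453 marked regions were narrower.

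The data were chromatin immunoprecipitation followed by sequencing (ChIP-seq) of CD4 T cells, sorted as naive cells and activated through CD3 and CD28 for 72 h. They were driven towards the IL-17-producing Th17 state by IL-6 (10 ng/ml) together with TGF-b (2.5 ng/ml), with IL-2, IL-4 and IFN-g blocked, and IL-6 was given again for 1 h. The sources used here give neither the age nor the number of the mice. The groups were wild-type cells (Stat3fl/fl FoxP3-GFP, with no Cre named) with an H3K4me3 and a phospho-STAT3(Ser727) library, and STAT3-deficient cells (Stat3fl/fl FoxP3-GFP, CD4-Cre) with an H3K4me3 library. All groups carried the floxed Stat3 allele and the FoxP3-GFP reporter, and CD4-Cre deletes the allele in T cells. Each of the 3 libraries was the only one of its kind, so no difference has a replicate check, none was tested, and 95% intervals cover counting error only. The libraries held 12281399 wild-type H3K4me3, 12075963 STAT3-deficient H3K4me3 and 10127075 phospho-STAT3 reads. Regions are given by mm9 position, and no gene was placed on them because the gene table at hand is of another build, GRCm38.p6. The labels were therefore not checked against the Stat3 gene or against T cell markers here.

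H3K4me3 is laid down at the starts of active genes by methyltransferases that travel with early elongating RNA polymerase, and most promoters carry it as a narrow block over the nucleosomes next to the start. In many cell types a small set of promoters carries it over several kilobases, and such broad domains are known to mark genes that define the cell type. STAT3 is the transcription factor that IL-6 activates, and it is required for the Th17 state. Serine phosphorylation, which the antibody used here recognises, accompanies its activation.

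The broad regions were 4800 bp wide in the median and up to 73000 bp. The median broad region held 230 wild-type and 303 STAT3-deficient H3K4me3 reads, and 204 phospho-STAT3 reads. Per length they were no denser than other marked regions, with a median of 104.5 pooled reads per kb against 110 in those under 4 kb. Of the 200 bp windows of the median broad region 73.1% passed the window threshold, close to the 73.3% of regions of 3 to 4 kb, and the lowest share was 47.8%. The highest 1 kb held 35.0% of the reads of the median broad region, and the highest window lay in the inner 50% of the width in 60.2% of broad regions. In the 1875 regions of 2 to 4 kb it lay there in 62.7%.

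The threshold cut through a continuous range of widths. Exactly 4000 bp was reached by 38 regions, and 38 further marked regions were 3800 bp wide and were left out. Of those just inside, the region with the fewest reads, at chr1:87853800-87857799, had 81 reads in wild-type cells and 184 in STAT3-deficient cells. Of those just outside, the region with the fewest reads, at chr9:3002200-3005999, held 104 and 129. Chromosomes 7, 1 and 11 held the most broad regions, with 21, 19 and 19, and chromosome 18 the fewest, with 3. Without regions rich in mismatched reads, described below, chromosomes 7, 1 and 11 held 19, 14 and 18. Chromosome 9 held 16 either way, and chromosome 17 held 15 in place of 18. As a share of the marked regions of a chromosome, all broad regions ranged from 0.995% on chromosome 12 to 3.33% on chromosome 17.

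The broad regions were not of 1 kind, and the widest of them stood apart. In 16 regions (6.93%), at least 20% of the H3K4me3 reads carried what was read as a mismatch to the reference, against a median of 4.19% in the other 215. The share of regions with that many mismatched reads was 1.05% among those under 4 kb. No source used here describes the column this rests on, which writes most reads as 25 and others as numbers and base letters that add up to the read length. The limit of 20% was set after the values had been seen, and the highest value below it was 19.3%. These 16 regions made up 18.3% of the length of all broad regions and 31.9% of their wild-type reads, and 7 of the 10 widest and 5 of the 10 densest regions were among them.

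**Figure D1:**
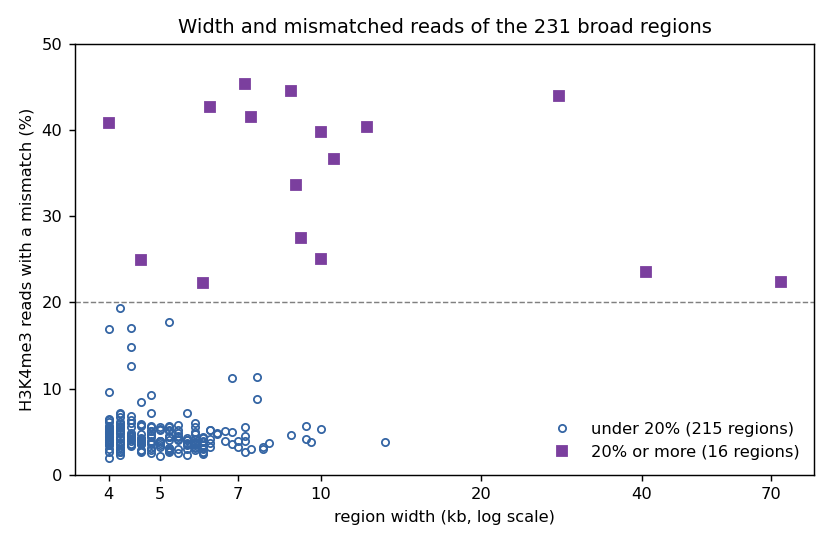
Each point is 1 of the 231 broad regions, with its width in kb on a log axis and the percentage of its H3K4me3 reads (both libraries) that carry a mismatch. The 16 squares at 20% or more include the regions of 28, 40.8 and 73 kb, and the circles under 20% all lie below 14 kb.

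The widest region ran over 73000 bp of chromosome 11, from 3027000 to 3099999. It held 11941 wild-type H3K4me3, 10988 STAT3-deficient H3K4me3 and 8536 phospho-STAT3 reads, and 22.3%, 22.4% and 21.4% of them carried a mismatch. On chromosome 1, 5 regions between 90108200 and 90203399 followed each other at gaps of 3400 to 7800 bp, and the longest, from 90126000 to 90166799, held 2114, 1796 and 1162 reads. On chromosome 17, the region from 3006000 to 3033999 held 1810, 1680 and 550 reads. The region at chr17:39979800-39985799 was the densest of all, with 1248, 965 and 7336 reads. It and chr8:87499200-87504999 were the broad regions with more phospho-STAT3 than pooled H3K4me3 reads. All 7 broad regions that began within 100 kb of the first read of their chromosome were among the 16, on chromosomes 3, 4, 11 and 17.

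All 16 lay below 0 in the scaled ratio of STAT3-deficient to wild-type H3K4me3, from -0.67 to -0.06 on the log2 scale, with a median of -0.41. This ratio sets the median of all marked regions to 0, and on the same scale 10 kb bins without any region lay at -0.30. By library totals the median of the 16 was -0.09. The region nearest to 0, at chr1:90170400-90174999, also held a phospho-STAT3 site and had the sharpest profile of the 16, with its highest window at 8.04 times its median window. Whether repeated sequence or copy number has a part in these 16 regions was not tested. They are kept in the counts below, which are also given without them.

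The other 215 regions ranged from 4000 to 13200 bp, with 97 at 5 kb or more and 18 at 7 kb or more. Their median density was 11.1-fold over the background of the wild-type library, taken as the median of 10 kb bins without a region. In the STAT3-deficient library it was 14.4-fold and in the phospho-STAT3 library 14.6-fold. The widest, at chr14:54811800-54824999, had 390 reads in wild-type cells and 493 in STAT3-deficient cells and no phospho-STAT3 site. A further broad region of 5200 bp began 3400 bp downstream of it. The next widest was chr3:89188600-89198599, with 508 and 553 reads. It was followed by chr8:35870400-35879999 with 462 and 768 reads, and by 2 regions of 9400 bp, chr9:108953600-108962999 with 549 and 751 and chr15:77664000-77673399 with 346 and 393.

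The densest of the 215, with 198.75 pooled reads per kb, was at chr4:155387400-155391399. It had 255 reads in wild-type cells and 540 in STAT3-deficient cells (log2 ratio 0.79, interval 0.57 to 1.01). The next in density were chr19:10809200-10813999, chr7:133844400-133848599, chr7:132746400-132752199 and chr19:10901000-10905199. Their log2 ratios were 0.08, 0.09, 0.01 and -0.07, each with an interval that included 0.

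The comparison of the H3K4me3 libraries asks whether broad regions depend on the Stat3 genotype. Most did not differ much: 197 of 231 (85.3%) lay within 0.5 log2 units of no difference, against 85.9% of the regions under 4 kb. Their median log2 ratio was 0.03 (SD 0.37, n = 231), and 0.05 without the 16 mismatch-rich regions. At these read counts the intervals were narrow, and they lay wholly above 0 in 57 regions, against 5.86% of all marked regions, and wholly below in 40, against 5.75%. The narrower regions hold fewer reads and so have wider intervals. Among the 649 regions under 4 kb with at least 300 reads, 94 lay wholly above and 46 wholly below. Of the 40, 15 were mismatch-rich. In a cell population, a change in the share of cells that carry the mark and a change of the mark in each cell cannot be told apart.

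**Figure D2:**
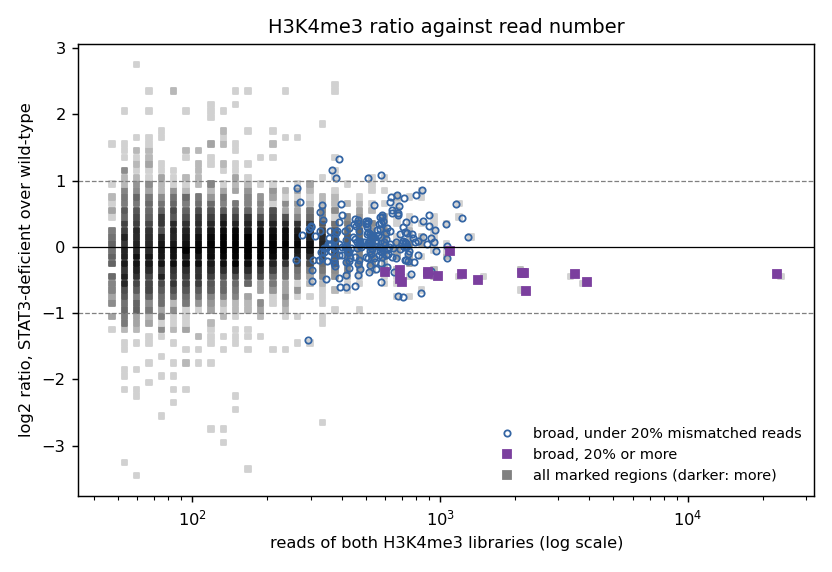
Log2 ratio of STAT3-deficient to wild-type H3K4me3 reads, scaled so that the median of all marked regions is 0, against the reads of both libraries on a log axis. Grey squares count all 10684 marked regions, circles and filled squares are the broad regions, and dashed lines mark 2-fold. The 16 filled squares lie below 0, while the circles spread on both sides of it and 6 of them pass 2-fold with an interval that excludes 0.

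A region was said to differ when the scaled ratio was at least 2-fold and its exact (Clopper-Pearson) 95% interval excluded no difference. By this rule 5 of 231 broad regions were higher in the STAT3-deficient library, against 1.00% of all marked regions, and 1 was lower, against 1.15%. Among the 649 regions under 4 kb with at least 300 reads, 4 were higher (0.616%) and 3 lower (0.462%). Among the 355 regions of 3 to 4 kb, 6 were higher (1.69%) and 7 lower (1.97%). All 6 broad regions that passed were among the 215 with few mismatched reads. By library totals 12 broad regions were higher and 1 lower. The direction also followed the library used to find the regions: among 217 broad regions chosen on wild-type reads alone 0 were higher and 8 lower, and among 317 chosen on STAT3-deficient reads alone 12 were higher and 0 lower.

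The largest gain was at chr8:123259600-123264199. It had 96 reads in wild-type cells and 295 in STAT3-deficient cells, 2.50-fold higher after scaling (log2 ratio 1.32, interval 0.99 to 1.67). The gain was uneven along the region, which was cut into segments of 1 kb for this purpose. Segments ran from a region's start, and a remainder shorter than 1 kb at its end was not counted. The first segment held 30 and 31 reads, while the next 3 held 32 and 111, 9 and 58, and 17 and 70. The mark thus began alike in both libraries and was 2.83-fold to 5.25-fold higher in STAT3-deficient cells over the following 3 kb.

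At chr9:44886600-44890999, 98 wild-type and 269 STAT3-deficient reads gave a log2 ratio of 1.16 (0.82 to 1.51). Its second segment held 18 and 100 reads, 4.52-fold higher. At chr1:155585200-155590599 the gain was spread over the region. It held 160 and 416 reads (log2 ratio 1.08, 0.82 to 1.35), and 4 of its 5 segments passed the rule.

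At chr2:9796800-9801599, 108 and 271 reads gave a log2 ratio of 1.03 (0.70 to 1.37). The ratio was highest at its start, where the first segment held 6 and 43 reads and the second 13 and 67. The third held 35 and 83 (log2 ratio 0.95, 0.36 to 1.56) and the fourth 30 and 50. At chr15:66630000-66635999, 145 and 366 reads gave a log2 ratio of 1.04 (0.76 to 1.33). Here the last 3 of 6 segments passed the rule: the fifth had 4 reads in wild-type cells and 49 in STAT3-deficient cells (log2 ratio 3.32, interval 1.87 to 5.25), and the first held 32 and 43. The second segment, with 33 and 71 reads, also had an interval above 0 (0.19 to 1.45). After removal of a trend by read count, the regions on chromosomes 2 and 15 fell just short of 2-fold, at 0.96 and 0.98.

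The only broad region that was lower was at chr9:63602200-63606399. It held 201 wild-type, 93 STAT3-deficient and 172 phospho-STAT3 reads, 2.65-fold lower after scaling (log2 ratio -1.41, interval -1.78 to -1.05). Its first 3 segments held 41 and 20, 68 and 23, and 52 and 19 reads, and its last 30 and 28. No phospho-STAT3 site was called inside it.

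Since these 6 regions were chosen for their difference in reads, widths called with a fixed number of reads follow it and are given as a description. Called in each library alone at equal depth, as described below, the 5 higher regions were 1800, 1400, 2400, 2400 and 4200 bp wide in the wild-type library, in the order on chromosomes 8, 9, 1, 2 and 15. In the STAT3-deficient library they were 5200, 4400, 7000, 8800 and 7600 bp wide. The lower region was 4400 bp wide in the wild-type and 1600 bp in the STAT3-deficient library.

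More regions passed the rule in a stretch of 1 kb than as a whole. Of 1273 segments of 1 kb with at least 30 pooled reads, 46 were higher (3.61%), against 2.06% of the segments of all marked regions, and 25 were lower (1.96%), against 1.65%. Without the mismatch-rich regions 46 of 1030 were higher and 22 lower. By library totals the split was 111 higher and 14 lower. In segments of 2 kb, 17 of 599 were higher and 6 lower. The higher segments lay in 31 of the 231 regions and the lower ones in 18, and no region held segments of both kinds. Of these 49 regions, 43 did not pass the rule as a whole. Among the 10453 regions under 4 kb, 153 held a higher segment, 143 a lower one and 0 both. Of these 296, 160 did not pass as a whole. Regions under 4 kb hold fewer segments each. Of the higher segments of broad regions 24 of 46, and of the lower ones 13 of 25, were first or last in their region. The same held for 36.2% of all segments tested in broad regions. The last segment can stop short of the region's end, because the remainder is not counted. Segments of 1 region share its reads and are not replicates, and their smaller counts make their ratios less precise than those of whole regions. The intervals are not adjusted for the number of segments.

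The clearest loss within a region was at chr7:132695000-132701999. As a whole it had 411 reads in wild-type cells and 298 in STAT3-deficient cells (log2 ratio -0.76, interval -0.98 to -0.54), short of 2-fold. Its first 2 segments held 43 and 55, and 93 and 111 reads, with log2 ratios of 0.06 and -0.04. From there the STAT3-deficient share fell segment by segment, and the last segment held 62 and 14 reads (log2 ratio -2.44, interval -3.39 to -1.59). The region has a peak towards each end. At the first the libraries did not differ beyond counting error, and at the second, in the sixth segment, they held 94 and 39 reads. A phospho-STAT3 site of 35 reads, 3.84-fold over its surroundings, lay in that segment, from 132700400 to 132700649.

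A like pattern was seen at chr18:65590000-65595399, with 218 wild-type and 176 STAT3-deficient reads in all. Its first 2 segments had log2 ratios of 0.23 and 0.05, while the last but 1 held 48 and 15 reads and the last 30 and 5, a log2 ratio of -2.88 (-4.60 to -1.5). Its 3 phospho-STAT3 sites, of 29, 33 and 25 reads, lay in the first 2 segments, where the mark did not differ beyond counting error. At chr1:36363200-36368999, the fifth segment held 36 and 11 reads (log2 ratio -2.01, -3.13 to -1.0) and the third 123 and 122. The fourth, with 120 and 73 reads (-1.01, -1.45 to -0.58), also passed the rule and held a phospho-STAT3 site of 33 reads. A further site of 50 reads lay in the second, which held 40 and 40 reads. At chr9:69137000-69141599, the last segment held 43 and 16 reads (-1.72, -2.65 to -0.86), against 86 and 93 in the second. At chr16:52450400-52454599, the second segment held 11 and 50 reads (log2 ratio 1.89, interval 0.93 to 2.98), and the whole region 137 and 262 (0.64).

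**Figure D3:**
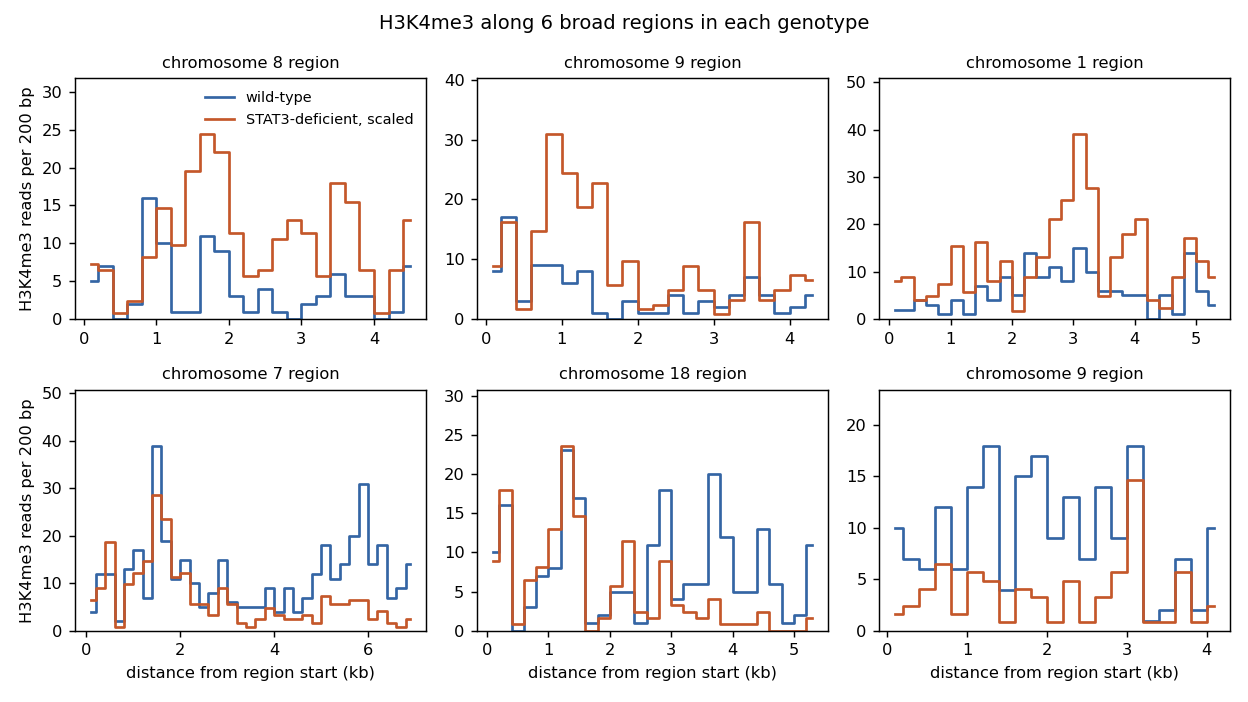
H3K4me3 reads per 200 bp along 6 broad regions against the distance from the region's start in kb, in the wild-type (blue) and the STAT3-deficient library (orange, divided by the scaling factor). The upper row holds the 3 higher regions with the interval farthest from 0, and the lower row the 3 regions whose lower segments had the interval farthest from 0. On chromosomes 7 and 18 the lines run together over the first 2 kb and part towards the other end.

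The extent of the mark was compared by calling each library alone with at least 6 reads per window, after thinning the wild-type reads to the STAT3-deficient total. The broad regions were 4400 bp wide in the wild-type and 5000 bp in the STAT3-deficient library in the median, and 142 of 231 reached 4 kb in both. A further 62 reached it in the STAT3-deficient library only and 22 in the wild-type library only, while 5 reached it in neither. A width at least 1.5 times larger was found in the STAT3-deficient library for 56 regions (24.2%), against 21.6% of all marked regions, and in the wild-type library for 11 (4.76%), against 8.72%. Without the mismatch-rich regions these were 52 and 11 of 215. The imbalance went with the larger share of reads inside regions in the STAT3-deficient library. With its reads thinned to 79.7%, so that both libraries held equally many reads in marked regions, 38 regions were wider in each library and both medians were 4400 bp.

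**Figure D4:**
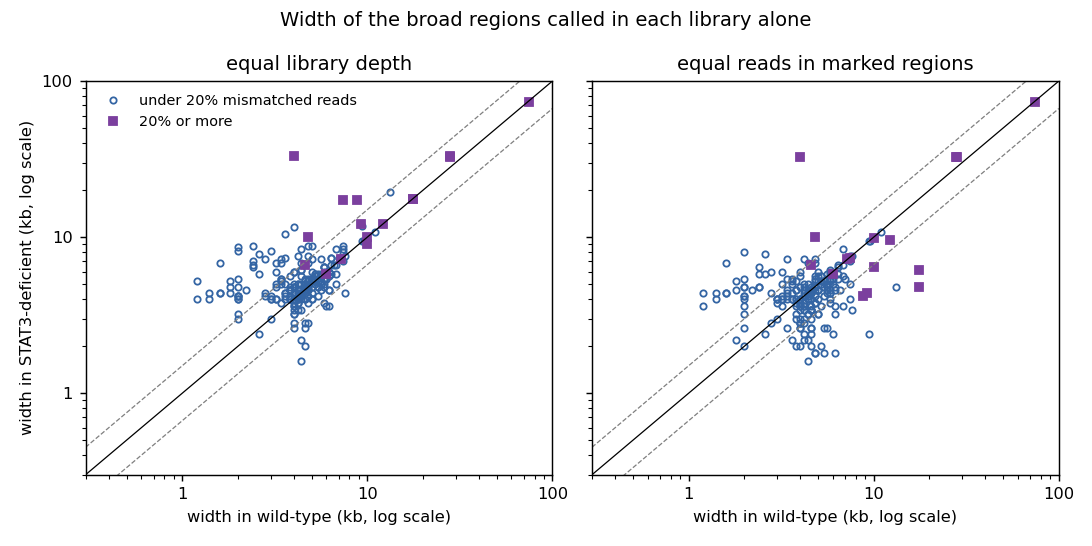
Width of each broad region in the wild-type against the STAT3-deficient library, called separately, on log axes in kb; the solid line is equality and dashed lines mark 1.5 times. At equal library depth (left) 56 regions lie above the upper dashed line and 11 below the lower, and at equal reads in marked regions (right) 38 lie on each side.

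Some single regions differed widely in extent at equal depth. At that depth the STAT3-deficient library holds the larger share of reads inside regions, and the widths given here are not adjusted for it. The region at chr1:87853800-87857799 was 1200 bp wide in the wild-type and 5200 bp in the STAT3-deficient library, with 81 and 184 reads. That at chr7:75420800-75425799 was 1600 and 6800 bp wide, with 187 and 354 reads. Regions at chr9:44789800-44794599 and at chr11:11586400-11594199 were 2000 bp wide in the wild-type and 8600 and 8200 bp in the STAT3-deficient library. Their reads differed far less, with log2 ratios of 0.24 and 0.39. A width measured by joining windows moves in steps when a single gap passes 600 bp, and the mismatch-rich region at chr17:3034800-3038799, 4000 and 33000 bp wide, is such a case, since it joined its neighbour in 1 library only.

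The phospho-STAT3 library was not used to choose the regions. There was no input library, and no phospho-STAT3 library of STAT3-deficient cells to set beside it. A site was a window of 200 bp with at least 10 reads that were improbable at both the genome-wide density and that of the surrounding 10 kb (Poisson p under 1e-08 for whichever was larger). Of 231 broad regions, 151 held a site (65.4%, Wilson 95% interval 59.0 to 71.2), against 47.6% of all marked regions. Without the mismatch-rich regions it was 148 of 215 (68.8%), and the 16 held sites in 3 regions. Sites strong enough to be in the top 25% of all sites lay in 90 broad regions (39.0%, 32.9 to 45.4), against 11.5% of all marked regions. A wide region has more room for a site. Of the 355 regions of 3 to 4 kb, 64.2% held a site and 27.9% a strong one. The same rule also found some of the sites in both H3K4me3 libraries. With those left out, the share with a site was 58.4% in broad regions, and in regions under 4 kb it fell from 47.25% to 23.1%.

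Per length, broad regions held 250 sites, 0.185 per kb, and regions under 4 kb held 0.396 per kb. Strong sites were at 0.0963 and 0.0841 per kb, so the order for all sites did not hold for them. Regions of 3 to 4 kb held 0.250 sites and 0.0987 strong sites per kb. Regions under 4 kb with at least 300 pooled reads held 0.346 and 0.107. Over all 231 broad regions, strong sites were thus not denser than in either of these groups. In the 215 with few mismatched reads they were at 0.102 per kb, between the values of these groups. The size of the gap for all sites varied with how sites are called. It stayed at site thresholds of 1e-05, with 0.295 against 0.634 per kb, and 1e-12, with 0.0955 against 0.219. Dense reads over several kb raise the local density that a site must exceed, and the part of this in the gap was not tested. Against the genome-wide density alone, the values were 0.760 and 0.775 per kb. With sites left out that the same rule also found in both H3K4me3 libraries, they were 0.147 and 0.184. Phospho-STAT3 reads per kb, which need no site calls, had a median of 41.0 in the 215 regions with few mismatched reads and 34.0 in those under 4 kb. The median was 37.4 in regions of 3 to 4 kb and 40.6 in those under 4 kb with at least 300 pooled reads. The higher density was thus not particular to broad regions. The narrower groups were not filtered for mismatched reads.

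Within the 215 regions with few mismatched reads there were 233 sites, with a median of 33 reads and 5.12-fold over the local density. Of these regions 67 held no site, 87 held 1, 42 held 2 and 19 held 3 or more. The highest site held 126 reads, 9.50-fold over the local density, at chr8:87500250-87500749. The region around it, from 87499200 to 87504999, held a further site of 82 reads and 100.7 phospho-STAT3 reads per kb. The region at chr11:87566800-87572399 held 4 sites, all strong, and 129.6 phospho-STAT3 reads per kb, the most of the 215. Its 320 wild-type and 449 STAT3-deficient H3K4me3 reads gave a log2 ratio of 0.19 (-0.02 to 0.40). Regions with 4 sites were also found at chr14:75575800-75582999 and at chr9:108953600-108962999, and the one at chr5:22937800-22941799 held 5.

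Sites lay both near the edges and near the peak of the mark. Within 1000 bp of an edge lay 50.6% of the sites and 39.0% of the length, and within 500 bp of the highest H3K4me3 window 24.5% of the sites and 19.03% of the length. Averaged over the 215 regions, phospho-STAT3 reads rose from 20.8 per kb at 300 bp outside the edge to 43.9 in the outermost 5% of the width, and stood at 40.2 next to the centre. Wild-type H3K4me3 rose over the same span from 9.87 to 40.9, and on to 52.0 next to the centre. Outside the edge, phospho-STAT3 reads were thus well above their library background of 2.8 per kb, and wild-type H3K4me3 reads were nearer to theirs of 4.1. Inside, phospho-STAT3 was nearly flat. The location of the edge was set on H3K4me3 reads, so its steep rise there follows from the rule.

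**Figure D5:**
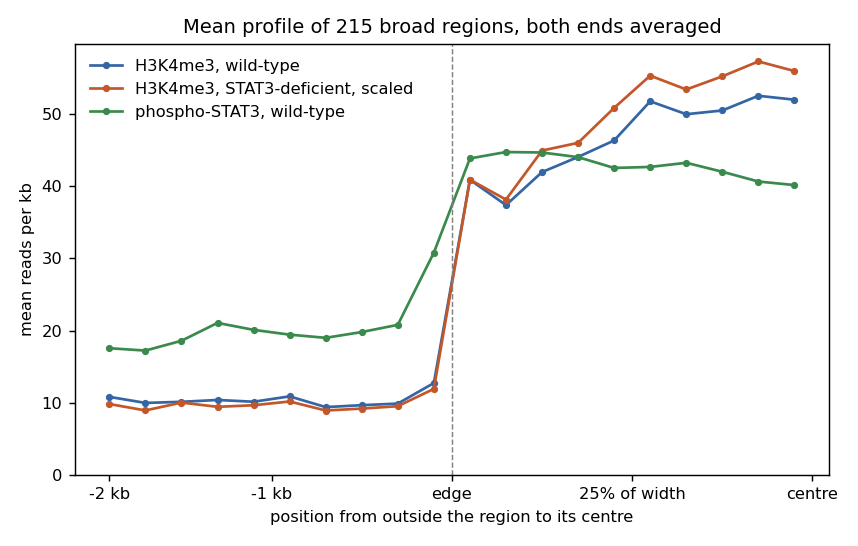
Mean reads per kb over the 215 broad regions with under 20% mismatched reads, from 2 kb outside the edge to the centre of the region, both ends averaged. Body positions are a share of the region's width, and the STAT3-deficient line is divided by the scaling factor. Phospho-STAT3 (green) lies above 17 reads per kb outside the edge and is nearly flat inside, while H3K4me3 steps up at the edge and rises to the centre.

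The genotype ratio of the average profile also changed from edge to centre. It was -0.09 on the log2 scale in the 200 bp outside the edge, 0.00 in the outermost 5% of the width and 0.11 next to the centre. Library background lay at -0.30 on this scale and held 4.1 reads per kb in the wild-type library, beside 12.7 just outside the edge and 52.0 next to the centre. Its part in the trend was not tested.

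Ratios were also set out by the number of phospho-STAT3 sites. The median log2 ratio was 0.05 in the 67 regions without a site, 0.02 with 1 site, 0.12 with 2 and 0.14 with 3 or more. The difference between these groups of regions was not tested. With a strong site the median was 0.02 (87 regions) and without one 0.07 (128 regions). All 6 regions that passed the rule were among the 128, the larger group. Of all marked regions 11.5% held a strong site. Whether passing the rule and lacking a strong site are related was not tested. Within 500 bp of the 233 sites the median log2 ratio of H3K4me3 was 0.03, with 6 sites higher by the rule, against 0.669% of the sites of all marked regions, and 4 lower, against 0.926%. The 6 higher sites lay in 5 regions, and the 2 in 1 region have overlapping windows. The lowest was the chromosome 7 site described above, with 97 wild-type and 40 STAT3-deficient reads around it, a log2 ratio of -1.57 (-2.14 to -1.03).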

How the data were processed

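Per the labels, fragments of about 250 bp with adapters were selected after 18 PCR cycles. The authors deposited aligned reads, 1 line per read, on mm9; SICER is named in the submitters' processing notes, and the aligner is not given in the sources used here. Each deposited file holds reads of 25 bp with 0 at a shared position and strand, which limits a window's highest possible count, and a column that was read as a code of mismatches; no source used here describes it, and its parts add up to 25 in 100% of reads. Reads were moved 75 bp towards the fragment centre and counted per region. Ratios were scaled to a median of 0 over marked regions, which takes out any change common to them and moves values by 0.32 log2 units from library totals. Regions of chromosomes X and Y were not analysed here.

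The members and lists were chosen with earlier results of these data known. Regions were named by rule: the 10 widest and 10 densest, those passing the size rule, the 5 with the most sites, the 5 with the largest width difference and 5 in each direction by segment. Others (the 16 mismatch-rich regions, the sites of largest height, those near other broad regions or low in phospho-STAT3) were picked after their values were seen. The rules were tested on simulated reads. Alternatives covered scaling, windows, gaps, width, read shift, calling library, segments and site calling. Software was scipy 1.17.1, numpy 2.4.6, statsmodels 0.14.6 and pandas 2.3.3 under Python 3.11.15. Reads carry no molecular identifiers.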

Additional observations from a re-analysis of the deposited data

How the results depend on the processing

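With 1 library per group no replicate could be left out, and no paired analysis was possible because no group has numbered replicates. The number of broad regions was 231, and it was 624 with 8 or more reads per window, 57 with 20 or more, 73 with gaps up to 200 bp, 362 with gaps up to 1000 bp, 586 from 3000 bp and 111 from 5000 bp. In the same order, 16 and 8, 1 and 0, 0 and 0, 10 and 5, 11 and 8, and 2 and 0 of them passed the rule as higher and lower, against 5 and 1. Scaling by library totals gave 12 higher, and a trend removed by read count 3 higher. With unmoved reads the regions were called anew, and of 212 broad ones 0 were lower. Over its original bounds, the lower region on chromosome 9 still passed with unmoved reads, at -1.41. When wild-type reads alone chose the regions, 0 were higher and 8 lower, and when STAT3-deficient reads alone did, 12 and 0. The region on chromosome 2 fell short of the rule under the trend and without the read shift, and that on chromosome 15 under the trend; the other 4 passed under each of the 4 alternatives run on them. The median log2 ratio of 0.03 was -0.03 with the trend removed and 0.36 by library totals, a shift by the scaling itself of 0.32. For widths, equal reads in regions gave 38 wider in the wild-type library; 5 or more reads per window gave 31 wider in the STAT3-deficient and 6 in the wild-type library, and 10 or more gave 76 and 20. Segments by library totals were 111 higher and 14 lower, in 2 kb 17 and 6, and with 60 or more reads 15 were lower. The share of broad regions with a site and the sites per kb were 84.8% and 0.295 at a site threshold of 1e-05, 42.4% and 0.0955 at 1e-12, 72.3% and 0.130 within 2 kb, and 58.4% and 0.147 without sites found in both H3K4me3 libraries. Chosen after the data were seen, the genome-wide density alone gave 96.5% and 0.760, and leaving out the mismatch-rich regions gave 0.211 per kb.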

Other observations

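Of the 231 broad regions, 22 lay within 20 kb of another, 10 of them with few mismatched reads. Neighbours could differ in their ratio. On chromosome 9, the region from 107187600 to 107192199 had 265 reads in wild-type and 250 in STAT3-deficient cells (log2 ratio -0.38, -0.64 to -0.13), and 5800 bp on, the region from 107198000 to 107203599 held 357 and 543 (0.31, 0.11 to 0.51). On chromosome 7, the region with the partial loss described above had a broad neighbour 44400 bp away, from 132746400 to 132752199, with 476 and 590 reads, 3 phospho-STAT3 sites and a log2 ratio of 0.01 (-0.16 to 0.19). On chromosome 9, the gain from 44886600 had a broad neighbour at a gap of 92000 bp with a log2 ratio of 0.24.

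A group of 4 broad regions with few mismatched reads held fewer than 10 phospho-STAT3 reads per kb, while the next of the 215 held 17.5. The lowest, at chr14:17684600-17688799, had 184 H3K4me3 reads in wild-type and 162 in STAT3-deficient cells, and 23 phospho-STAT3 reads, 5.48 per kb. The others were at chr17:26455000-26459599 (5.87 per kb), at chr5:30424400-30429799 (6.48) and at chr6:100409600-100414199 (9.13). Their log2 ratios ran from -0.48 to -0.07, with intervals that included 0 in 2 of them, while 85 of the 215 regions lay below 0. None held a site. Their profiles were flat, with the highest window at 1.64 to 2.50 times the median window, against a median of 3.25 over the 215.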
